A study of Homo sapiens with 22 samples.

Results

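K562 cells, an established line from a chronic myeloid leukaemia that can be driven towards a megakaryocyte-like state, had 500 top clusters of dense H3K27 acetylation after 72 h in phorbol 12-myristate 13-acetate (PMA), and 287 of these overlapped no top cluster of 0 h. H3K27ac is a histone mark of active promoters and enhancers. A cluster was built by joining acetylated regions less than 12500 bp apart, on chromosomes 1 to 22 and X. A region counted as acetylated at a time when it overlapped a called peak in both H3K27ac libraries of that time. The 25340 clusters at 72 h were ranked by their summed CPM (a region's count scaled to the library's total), and the top 500 were kept. Of these, 213 overlapped a top 500 cluster built in the same way from the 0 h libraries, and they are called retained here. The other 287 are the new clusters. They were chosen by the measured H3K27ac levels and peaks at 0 and 72 h, so these are given as a description, with no test.

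All libraries came from wild-type K562 cells given 25 nM PMA for 6 or 72 h or taken at the start (0 h), and were made by CUT&RUN, in which an antibody-guided nuclease releases DNA at the bound sites for sequencing. The cells were fixed in 1% formaldehyde for 10 min. H3K27ac, the AP-1 subunit Jun and the insulator protein CTCF were profiled at 0, 6 and 72 h, and the cohesin subunit Rad21 at 0 and 72 h, with 2 libraries a group and 22 libraries in all. The labels number the libraries of a group but do not say that they came from separate cultures, so p-values measure only the spread between these libraries, which may be technical. No genotype differs between the groups, the 0 h cells are the only control, and K562 is 1 aneuploid cancer line.

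Clusters of closely spaced, strongly acetylated enhancers have been called super-enhancers, and in many cell types they lie near genes that set the identity of the cell. PMA activates protein kinase C, which signals through the MAPK cascade to AP-1, a dimer of Jun and Fos proteins that binds the motif TGANTCA. The factors CTCF and cohesin together anchor chromatin loops, and cohesin also loads at active enhancers. In K562 cells PMA slows growth and raises megakaryocyte genes such as the integrin chain ITGB3.

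AP-1 motifs could be looked for only where a sequence was at hand, in the promoter windows of RefSeq (GRCh38.p14), which run from 250 bases before to 50 bases after each gene start. Of the 35116 windows, 7.71% held TGANTCA, a motif that reads the same on both strands. Of the 476 windows inside new clusters, 67 (14.1%) held it, against 36 of 576 (6.25%) inside retained clusters. Among windows on an acetylated region of a new cluster, it was in 16 of 29 (55.2%) that lay on a Jun region higher at 72 h, and in 16 of 162 (9.88%) on a Jun region lower at 72 h. The GATA motif AGATAA was in 6.93% of the windows in new clusters against 10.3% of all. The RUNX motif TGTGGT was in 12.2% against 13.1%, both searched on either strand. These shares are descriptions. Windows on Jun regions called higher or lower were not counted outside the new clusters, so their shares are not shown to be particular to them. Windows of neighbouring starts can overlap and share 1 motif.

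The following 5 are the 250 bases before the start of protein-coding genes whose promoter window lay on an acetylated region of a new cluster, held TGANTCA and lay on a Jun region that was higher at 72 h. Capitals mark the motif.
PRSS2, chr7:142770720-142770969 (plus strand): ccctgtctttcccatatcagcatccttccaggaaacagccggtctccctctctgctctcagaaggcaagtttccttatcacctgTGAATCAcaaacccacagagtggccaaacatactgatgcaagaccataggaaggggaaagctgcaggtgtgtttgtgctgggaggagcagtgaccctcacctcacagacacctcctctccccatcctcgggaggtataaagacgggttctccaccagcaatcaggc
LOC124904930, chr20:51354227-51354476 (minus strand): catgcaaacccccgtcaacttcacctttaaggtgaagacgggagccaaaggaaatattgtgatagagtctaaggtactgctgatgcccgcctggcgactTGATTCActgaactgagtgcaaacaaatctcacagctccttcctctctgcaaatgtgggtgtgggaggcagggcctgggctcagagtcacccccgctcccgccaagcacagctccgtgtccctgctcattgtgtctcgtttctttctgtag
PAEP, chr9:135561506-135561755 (plus strand): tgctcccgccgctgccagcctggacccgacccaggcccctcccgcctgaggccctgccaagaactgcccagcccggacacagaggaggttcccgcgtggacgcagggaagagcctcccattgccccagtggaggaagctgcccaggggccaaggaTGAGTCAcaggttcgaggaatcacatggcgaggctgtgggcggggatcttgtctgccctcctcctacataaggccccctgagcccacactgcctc
BBC3, chr19:47232668-47232917 (minus strand): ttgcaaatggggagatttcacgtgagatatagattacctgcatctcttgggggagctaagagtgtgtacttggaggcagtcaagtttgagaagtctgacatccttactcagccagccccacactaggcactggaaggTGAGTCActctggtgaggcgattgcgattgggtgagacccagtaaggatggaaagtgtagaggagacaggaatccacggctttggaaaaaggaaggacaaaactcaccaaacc
PHACTR4, chr1:28437900-28438149 (plus strand): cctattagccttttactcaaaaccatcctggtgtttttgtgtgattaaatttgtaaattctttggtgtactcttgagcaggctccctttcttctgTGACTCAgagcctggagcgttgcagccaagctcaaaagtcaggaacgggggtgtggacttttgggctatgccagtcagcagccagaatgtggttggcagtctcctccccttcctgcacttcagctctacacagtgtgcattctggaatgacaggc

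PRSS2 encodes a trypsinogen, PAEP a secreted lipocalin, BBC3 the pro-apoptotic protein PUMA and PHACTR4 a regulator of protein phosphatase 1 and actin, while LOC124904930 is a RefSeq model beside NFATC2. The motif began 166 bases before the start of PRSS2, 151 before that of LOC124904930, 95 before that of PAEP, 113 before that of BBC3 and 155 before that of PHACTR4. Jun counts are given as scaled CPM, that is CPM over library sizes adjusted by trimmed-mean-of-M-values (TMM) factors. At the PRSS2 promoter Jun stood at 1.75 and 1.86 at 0 h, 1.82 and 0.912 at 6 h, then 7.703 and 7.89 at 72 h (log2 fold change 2.1, SE 0.33). At the BBC3 promoter it stood at 7.0 and 7.596 at 0 h, 17.5 and 17.3 at 6 h, then 18.9 and 18.4 at 72 h (log2 fold change 1.35, SE 0.21). At the PHACTR4 promoter, where Jun was already present, it stood at 27.6 and 31.2 at 0 h, 25.6 and 30.8 at 6 h, then 44.6 and 38.9 at 72 h (log2 fold change 0.5, SE 0.19). A Jun region called higher at 72 h was a condition for showing these promoters, so their 72 h values describe the choice and are given with no test. The 6 h libraries of PRSS2 and PHACTR4 did not separate from those of 0 h, and those of BBC3 lay above them.

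Precursors of 21 miRNA hairpins lay in 17 of the new clusters. Shown is a mature form of each of these hairpins from the miR-29, miR-181 and miR-101 families, with the seed (bases 2 to 8, from RefSeq, GRCh38.p14) in capitals. The other mature forms in these clusters are not shown. The first pair and the second pair each share a seed.
miR-29c-3p: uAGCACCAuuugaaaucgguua
miR-29b-3p: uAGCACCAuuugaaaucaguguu
miR-181c-5p: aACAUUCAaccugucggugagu
miR-181d-5p: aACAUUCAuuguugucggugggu
miR-101-3p: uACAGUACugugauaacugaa
Summed H3K27ac over the cluster with the miR-29c and miR-29b-2 genes (chr1:207796993-207849230) was 90.5 and 91.2 CPM at 0 h, 149 and 156 CPM at 6 h and 290.2 and 270.1 CPM at 72 h. Over the cluster with miR-181c and miR-181d (chr19:13838589-13882709) it was 179.8 and 182 CPM at 0 h, 196 and 211 CPM at 6 h and 230.2 and 235 CPM at 72 h, a far smaller rise. Over the cluster with miR-101-2 (chr9:4814848-4856663) it was 203 and 214 CPM at 0 h, 217 and 242 CPM at 6 h and 223 and 234 CPM at 72 h, with the 72 h libraries only slightly above those of 0 h. The miRNAs themselves were not measured.

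Library totals ran from 12634261 to 27266241 counts for H3K27ac, from 4766421 to 18883962 for Jun, from 2553677 to 6068421 for CTCF and from 4398797 to 7285286 for Rad21, so CTCF values are the least precise. Mitochondrial regions took 24.05 and 27.7% of the Jun counts at 0 h but 9.07 and 8.58% at 72 h. For CTCF they took 17.8 and 22.1% at 0 h, 30.5 and 20.4% at 6 h, then 9.55 and 9.63% at 72 h. TMM scaling and scaling to library totals place the zero of the changes differently. How far the mitochondrial counts account for this was not tested. Over all clusters, totals shift the median log2 change of Jun at 72 h by 0.56 and at 6 h by 0.2, of CTCF at 72 h by 0.23 and at 6 h by -0.2, and of Rad21 by -0.17. The new cluster at chr1:143184659-143266950, 635 kb from the nearest coding gene, stood apart: it held 9 of 9 Jun, 22 of 23 CTCF and 26 of 26 Rad21 regions of new clusters above 300 CPM. Its H3K27ac, 193 and 205 CPM at 0 h, 582 and 240.4 CPM at 6 h and 153 and 299 CPM at 72 h, differed between libraries of the same time by about as much as between times. Counts of clusters below include it as 1 cluster.

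Not all of the 287 were newly acetylated; the rank made some of them new. A total of 26 overlapped no acetylated cluster at 0 h, and the other 261 overlapped a lower-ranked one, at a median best rank of 2089. H3K27ac summed over a new cluster had a median of 119.8 and 132 CPM at 0 h, 179.99 and 194 CPM at 6 h and 249 and 258 CPM at 72 h. The fold of 72 h over 0 h means had a median of 2.32 and ran from 0.554 to 251. It was at least 2 in 158 clusters, at least 4 in 87 and at least 16 in 31, lay between 1 and 2 in 97 and was below 1 in 32. Both 72 h libraries exceeded both 0 h libraries in 249 clusters and lay below both in 30. These levels are scaled to library totals. The median log2 change of the new clusters at 72 h was 1.22 under totals and 0.99 under TMM, so folds near 1 rest on the scaling.

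Clusters that hardly moved became new through their rank. Over the same regions, 53 of the 287 had a 0 h level at or above that of the 500th cluster at 0 h (215 CPM). Of these, 38 spanned 2 or more separate 0 h clusters, each ranked alone. The clusters just inside the threshold at 72 h, named by the nearest coding gene, were those of H4C14 (201.20 CPM), ADGRF3 (200.78 CPM) and SEC14L2 (200.77 CPM). The clusters just outside were those of ZKSCAN4 (200.77 CPM), DCUN1D3 (200.73 CPM) and ASPH (200.48 CPM), so the edge of the set separates near-identical values. In a population of cells, more cells carrying a mark and more mark per cell cannot be told apart.

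**Figure D1:**
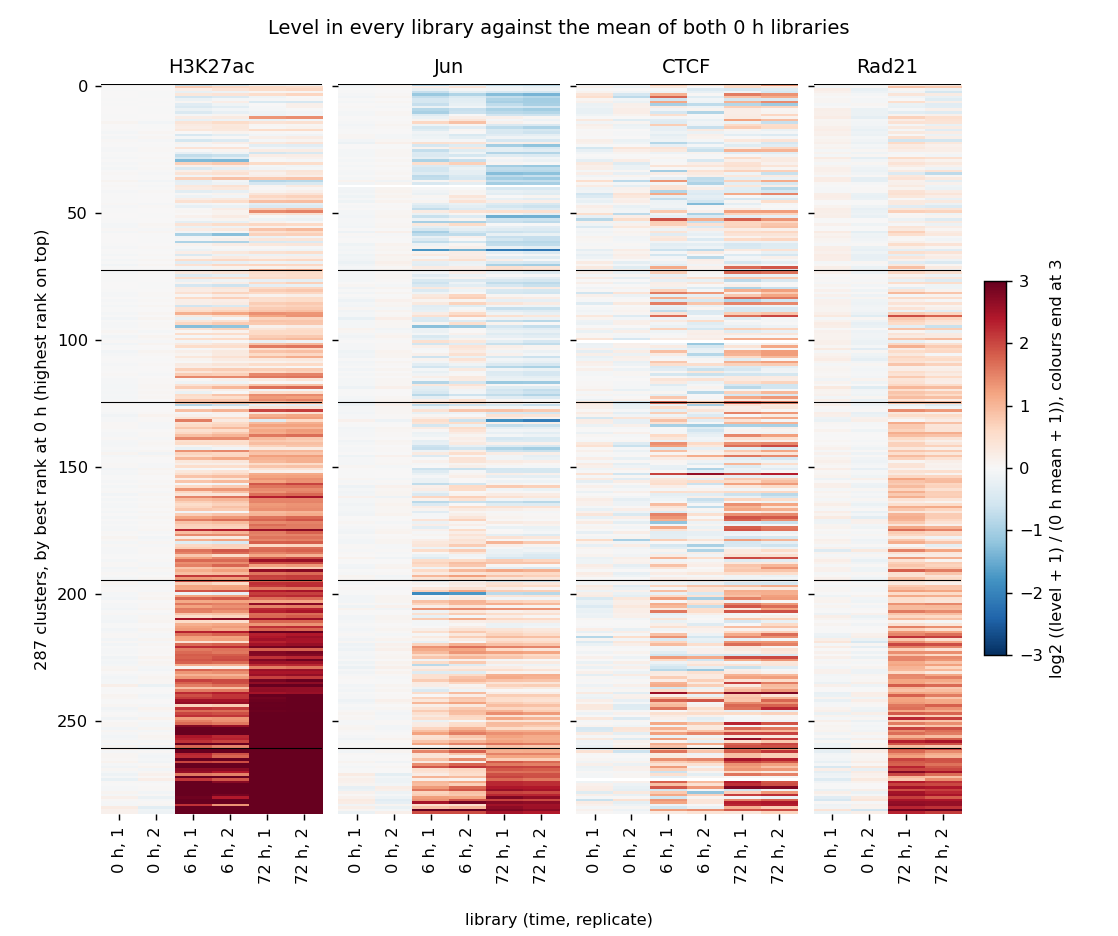
Level of each of the 287 new clusters (rows) in every library (columns, by time and replicate) for H3K27ac, Jun, CTCF and Rad21, as log2 of the level plus 1 over the mean of both 0 h libraries plus 1, with colours that end at 3. Rows run from the highest best rank at 0 h on top to the 26 clusters with no 0 h cluster at the bottom, and black lines divide the rank classes: H3K27ac, Jun and Rad21 turn redder together towards the bottom, Jun is blue at 72 h near the top, and CTCF is mixed.

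The new clusters were long stretches of many elements. Their width had a median of 42.3 kb (4.06 to 119 kb), against 37.4 kb in retained clusters and 1.96 kb over all clusters at 72 h. They held a median of 7 acetylated regions (1 to 23), and 1 consisted of a single region. Of their 2146 acetylated regions, 896 (41.8%) had peaks in both libraries at 0 h and 986 (45.9%) at 6 h; in retained clusters these shares were 72.3% and 66.4%. Promoter windows overlapped 10.9% of the acetylated regions in new clusters and 19.4% in retained ones. At least 1 promoter window lay in 176 new clusters (61.3%), against 76.5% of retained clusters. Chromosome 1 held 58 new clusters (20.2%), close to the 20.7% of retained clusters and against 10.9% of all clusters at 72 h. Chromosome 6 held 33 (11.5%), against 16.4% of retained and 6.01% of all clusters.

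At 6 h many clusters were part of the way. Both 6 h libraries exceeded both 0 h libraries in 222 of the 287 and lay below both in 38. The CPM used here are scaled to library totals, and the counts and shares of this paragraph depend on that. Under TMM the median log2 change of the new clusters at 6 h was 0.3, against 0.64 under totals. Over all clusters it was 0.15 under TMM and 0.48 under totals. Both 6 h libraries lay below both 72 h libraries in 231 and above both in 33. Among the 158 clusters with at least a 2-fold rise, the 6 h mean had covered a median of 38.5% of the rise (quartiles 22.5% and 54.3%), and in 4 it was below the 0 h mean. A top 500 cluster at 6 h overlapped 86 new clusters (29.97%), against 182 retained clusters (85.4%). Per H3K27ac region inside new clusters, 1674 were called higher and 540 lower at 6 h, where 58.6% of all regions were called either way; this contrast shares its 0 h libraries with the choice of clusters, and nothing is read from it.

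The new cluster with the highest H3K27ac at 72 h covered MICAL2, an oxidase that disassembles actin filaments, at chr11:12113143-12214559. Its H3K27ac was 276 and 287 CPM at 0 h, 526 and 572 CPM at 6 h and 846 and 904 CPM at 72 h, so the times did not overlap. Jun over the cluster did not pass the test under TMM (log2 fold change -0.1, SE 0.15, edgeR adjusted p = 0.54). It did under scaling to totals (log2 fold change 0.46, edgeR adjusted p = 0.025), so whether Jun changed there is not settled. Rad21 was higher (log2 fold change 0.9, SE 0.17, edgeR adjusted p = 5.5e-05). The next, at chr22:22687115-22729618 and 39.2 kb from GGTLC2, had 13.6 and 14.1 CPM at 0 h, 166 and 146 CPM at 6 h and 642 and 642 CPM at 72 h. Jun there was 179.97 and 159 scaled CPM at 0 h, 342 and 330.5 at 6 h, then 688 and 645 at 72 h (log2 fold change 1.98, SE 0.15, edgeR adjusted p = 3.1e-13), and Rad21 was 157 and 182 scaled CPM at 0 h and 337 and 316 at 72 h (log2 fold change 0.95, SE 0.17, edgeR adjusted p = 3.7e-05). Both Jun libraries lay higher at each later time, and the groups did not overlap. CTCF there was 911 and 974 scaled CPM at 0 h, 787 and 992 at 6 h, then 949 and 966 at 72 h and did not pass the test (log2 fold change 0.023, SE 0.27, edgeR adjusted p = 0.96).

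The cluster in TRIO, which encodes an exchange factor for small GTPases, went from almost no acetylation to rank 17 at chr5:14399068-14477293. Its H3K27ac was 4.51 and 2.71 CPM at 0 h, 52.6 and 48.7 CPM at 6 h and 613 and 653 CPM at 72 h, a 175-fold rise. Jun there was 53.1 and 40.3 scaled CPM at 0 h, 87.4 and 93.6 at 6 h, then 303 and 275 at 72 h (log2 fold change 2.63, SE 0.15, edgeR adjusted p = 2.7e-16), and Rad21 was 21.5 and 24.9 scaled CPM at 0 h and 117 and 109 at 72 h (log2 fold change 2.28, SE 0.18, edgeR adjusted p = 3.2e-12). All 18 of its tested Jun regions and 11 of its 12 tested Rad21 regions were called higher at 72 h. The strongest Jun region of TRIO, chr5:14406000-14407602, had 8.75 and 7.17 scaled CPM at 0 h, 18.6 and 21.9 at 6 h, then 55.8 and 45.9 at 72 h. In the cluster near GGTLC2 the strongest Jun region, chr22:22727254-22729303, had 43.5 and 40.3 at 0 h, 96.5 and 99.8 at 6 h, then 218 and 197 at 72 h. Both regions climbed at each time.

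Other clusters of high rank lay near genes of signalling and transcription. The cluster 25.2 kb from JUN itself, at chr1:58809295-58910170, had 191 and 197 CPM at 0 h, 203 and 210.3 CPM at 6 h and 518 and 546 CPM at 72 h, a little higher at 6 h and far higher at 72 h. Jun over it was 139 and 151 scaled CPM at 0 h, 175 and 197 at 6 h, then 207 and 202 at 72 h (log2 fold change 0.49, SE 0.13, edgeR adjusted p = 0.0014), and Rad21 also passed the test (log2 fold change 0.69, SE 0.17, edgeR adjusted p = 0.0017). In NFATC2, a calcium-regulated transcription factor, H3K27ac was 74.9 and 78.1 CPM at 0 h, 165 and 182 CPM at 6 h and 481 and 509.6 CPM at 72 h, with Jun (log2 fold change 1.12, SE 0.14, edgeR adjusted p = 1.6e-08) and Rad21 (log2 fold change 1.7, SE 0.18, edgeR adjusted p = 1.1e-09) higher. Over CCRL2, an atypical chemokine receptor, it was 54.1 and 57.6 CPM at 0 h, 282 and 294 CPM at 6 h and 517 and 558 CPM at 72 h, and Jun rose there by less (log2 fold change 0.46, SE 0.14, edgeR adjusted p = 0.0032). The cluster with PRSS2 had 137 and 142 CPM at 0 h, 262 and 291 CPM at 6 h and 562.2 and 589.6 CPM at 72 h, with Jun (log2 fold change 0.84, SE 0.14, edgeR adjusted p = 3.0e-06) and Rad21 (log2 fold change 1.37, SE 0.17, edgeR adjusted p = 4.9e-08) higher. Near PHLDA1, a pleckstrin-homology protein, it was 93.1 and 102 CPM at 0 h, 467 and 509.8 CPM at 6 h and 580.01 and 641 CPM at 72 h, most of it present at 6 h. Jun there did not pass the test under TMM (log2 fold change -0.062, SE 0.15, edgeR adjusted p = 0.71) but did under scaling to totals (log2 fold change 0.5, edgeR adjusted p = 0.014). Rad21 was higher (log2 fold change 1.6, SE 0.18, edgeR adjusted p = 2.1e-09).

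Megakaryocyte and platelet genes were overlapped by new clusters in 4 of 28 listed cases (ITGB3, LTBP1 and RUNX1 among them), where 1.8% of all protein-coding genes were. Top 500 clusters of 0 h already overlapped 3 of the 28 (RUNX1 among them), where 3.72% of all protein-coding genes were. In the cluster with ITGB3, the integrin chain of the platelet fibrinogen receptor, H3K27ac was 158 and 151 CPM at 0 h, 262 and 256 CPM at 6 h and 422 and 435 CPM at 72 h, with no overlap between times. Jun there had a log2 fold change of -0.44 (SE 0.13, edgeR adjusted p = 0.0036), which under scaling to totals was 0.12, so its direction is not settled. LTBP1, a latent TGF-beta binding protein, carried a cluster with 29.5 and 22.3 CPM at 0 h, 77.4 and 84.4 CPM at 6 h and 257 and 285 CPM at 72 h and another with 84.9 and 88.6 CPM at 0 h, 156 and 172 CPM at 6 h and 198 and 220.5 CPM at 72 h. Jun was higher in the first (log2 fold change 0.73, SE 0.13, edgeR adjusted p = 7.7e-06). In the second it did not pass the test under TMM (log2 fold change -0.16, SE 0.13, edgeR adjusted p = 0.26). Rad21 was higher in both (log2 fold changes 1.84, SE 0.21, and 0.94, SE 0.2). In RUNX1, a transcription factor of blood formation, H3K27ac was 222 and 228 CPM at 0 h, 223 and 241 CPM at 6 h and 241 and 252 CPM at 72 h, a fold of 1.096.

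Erythroid genes entered the set without gaining acetylation. Of 20 listed genes, 3 were overlapped by a new cluster, and in all 3 the fold of H3K27ac was below 1. Over ANK1, the red cell membrane ankyrin, it was 353 and 347 CPM at 0 h, 295 and 321 CPM at 6 h and 239 and 256 CPM at 72 h. Over GATA1, the transcription factor of erythroid and megakaryocyte cells, it was 289.97 and 279 CPM at 0 h, 155 and 177 CPM at 6 h and 231 and 226 CPM at 72 h, lowest at 6 h. Over TAL1, a partner of GATA1, it was 233 and 238 CPM at 0 h, 186 and 198 CPM at 6 h and 211 and 210.1 CPM at 72 h. Top 500 clusters at 0 h overlapped 6 of the 20 (HBZ, GYPB, LMO2 and RHAG among them), and K562 is known to express erythroid genes. No new or retained cluster overlapped any of 13 marker genes of fibroblasts, endothelium or epithelium. Of 15 monocyte genes, 1 was overlapped by a new cluster (CSF1, a growth factor of monocytes). New clusters overlapped 1.8% of all protein-coding genes, and lists this short cannot tell these counts from that share. Clusters of ranks 501 to 1000 at 72 h, outside the top 500 at 0 h, overlapped 3 of the 15 (CSF1R, FCGR2A and CTSB). They also overlapped 1 of the 13 (EPCAM), 3 of 28 megakaryocyte and platelet genes and 2.19% of all protein-coding genes.

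RUNX2, EGR3 and RUNX1 were the 3 genes overlapped among 22 transcription factors of the megakaryocyte and myeloid lines (13.6%, against 1.8% of all protein-coding genes). In RUNX2, H3K27ac was 75.1 and 84.2 CPM at 0 h, 269 and 288 CPM at 6 h and 251 and 259.7 CPM at 72 h, as high at 6 h as later. Over EGR3, an immediate-early factor, it was 96.2 and 93.1 CPM at 0 h, 214 and 220.3 CPM at 6 h and 279 and 283 CPM at 72 h. Of 15 AP-1 subunits, FOSL1 alone lay in a new cluster, with 349 and 377 CPM at 0 h, 368 and 388 CPM at 6 h and 372 and 364 CPM at 72 h and thus no rise, while JUND and FOSB lay in retained clusters. Of 21 genes of MAPK and PKC feedback, the phosphatases DUSP1 and DUSP10 and the Ras inhibitor SPRED2 were overlapped (14.3%). DUSP1 had 205 and 210.5 CPM at 0 h, 304 and 303 CPM at 6 h and 316 and 305 CPM at 72 h, SPRED2 had 198 and 206 CPM at 0 h, 312 and 340.4 CPM at 6 h and 347 and 353 CPM at 72 h, and DUSP10 had 226 and 221 CPM at 0 h, 165 and 187 CPM at 6 h and 204 and 211 CPM at 72 h, with 72 h below 0 h. TNIP1, an inhibitor of NF-kappaB signalling (1 of 12 listed), had 78.8 and 85.2 CPM at 0 h, 125 and 140.3 CPM at 6 h and 252 and 257 CPM at 72 h. LAMB3, a laminin chain (1 of 16 adhesion genes), had 54.9 and 56.9 CPM at 0 h, 128 and 131 CPM at 6 h and 264 and 272 CPM at 72 h, and BTG2, an inhibitor of cell division (1 of 15 growth genes), had 113 and 116 CPM at 0 h, 187 and 201 CPM at 6 h and 324 and 322 CPM at 72 h. None of 16 cytoskeleton, 15 matrix and 13 TGF-beta genes of the other lists was overlapped by a new cluster. With 1.8% of all protein-coding genes overlapped, lists this short can hold none by chance, so nothing is read from this. Clusters of ranks 501 to 1000 at 72 h, outside the top 500 at 0 h, overlapped 3 of the 16 (FLNA, TPM4 and LIMA1). They also overlapped 1 of the 15 (PLAU), 0 of the 13 and 2.19% of all protein-coding genes.

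**Figure D2:**
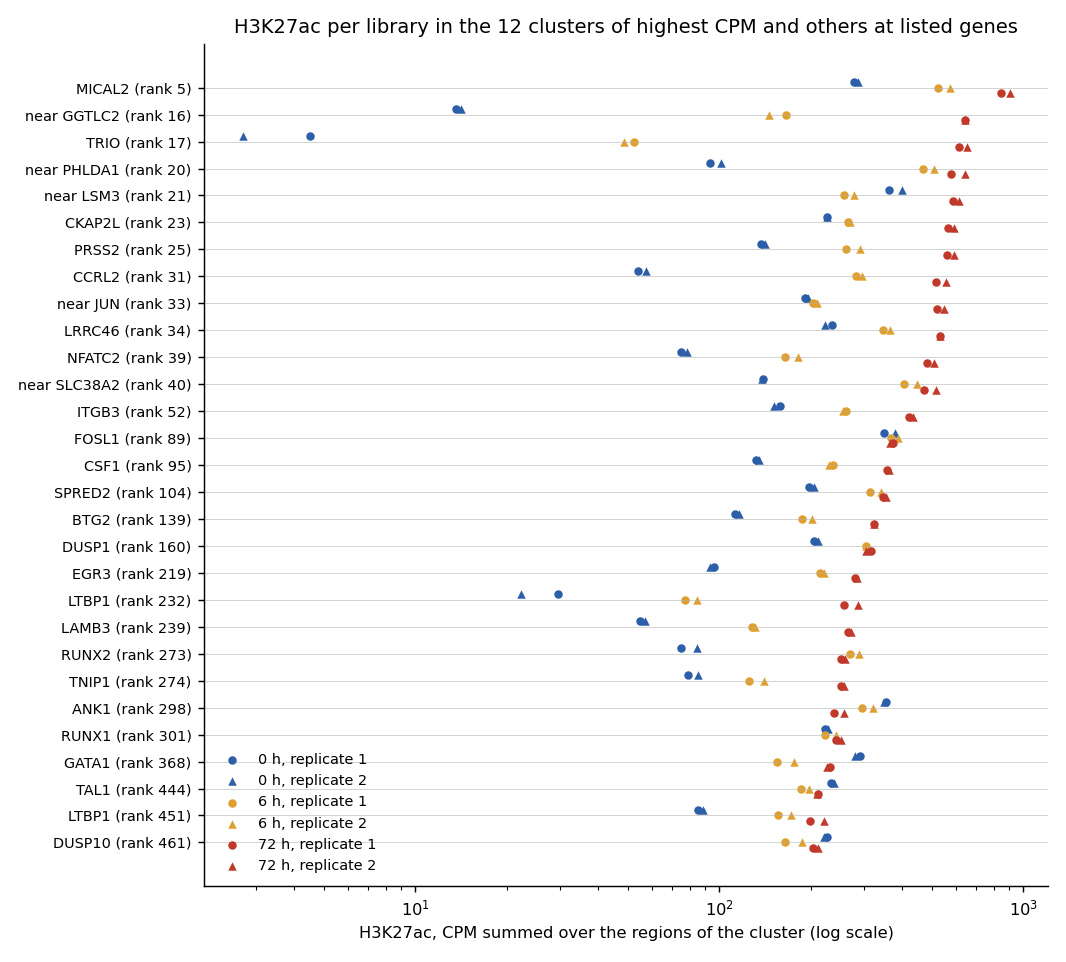
H3K27ac in CPM summed over each cluster (horizontal log axis) in every library for the 12 new clusters of highest CPM and others at listed genes (rows, with their rank at 72 h); colour gives the time and the symbol the replicate. TRIO lies at 4.51 and 2.71 CPM at 0 h and at 613 and 653 CPM at 72 h, whereas at FOSL1 and RUNX1 the times lie close together and at ANK1, GATA1, TAL1 and DUSP10 the 0 h libraries lie highest.

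Jun, which the choice of clusters did not use, moved in both directions. Counts were summed per cluster and tested over all 72 h clusters. Of 286 new clusters tested at 72 against 0 h, 93 (32.5%) were higher and 92 (32.2%) lower, with 33.7% called higher and 40.9% called lower over all clusters. The count of clusters with more Jun is thus near the background. The median log2 fold change was -0.022 (quartiles -0.44 and 0.49), against -0.15 over all clusters. In retained clusters 0 were higher and 183 lower of 213, with a median of -0.75. Under scaling to library totals, 176 new clusters were called higher and 15 lower, where 47.5% and 19.7% of all clusters were. All 93 of the higher calls were also made under that scaling, and 70 held under it, in DESeq2 and with any 1 library left out. Of the 92 lower calls, 43 changed sign under totals and 15 held throughout.

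The 93 clusters called higher in Jun and the 92 called lower under TMM differed in their acetylation. In the first, H3K27ac had a median of 32.4 and 34.4 CPM at 0 h, 122 and 120.4 at 6 h, then 260.4 and 277 at 72 h, and Jun had a median of 65.3 and 68.7 scaled CPM at 0 h, 94.4 and 118 at 6 h, then 134 and 129.5 at 72 h. Both sets were chosen by their Jun calls at 72 against 0 h, so the 72 h Jun values of each describe that choice. The 6 h Jun values were not used for it, but they are set against the same 0 h libraries. In the second, H3K27ac had a median of 205 and 208 CPM at 0 h, 208 and 230.2 at 6 h, then 239 and 244 at 72 h, and Jun had a median of 151 and 161 scaled CPM at 0 h, 118 and 129 at 6 h, then 98.7 and 95.1 at 72 h. This fall in Jun rests on the scaling: under totals 15 of the 92 were still called lower and 43 changed sign. The H3K27ac fold had a median of 8.23 in the first and 1.19 in the second, and it was at least 2 in 91 of the 93 and in 14 of the 92. All 26 clusters with no acetylated 0 h cluster were among the 93.

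The largest Jun gains lay in clusters that were bare at 0 h. In HIVEP3, a zinc finger transcription factor, H3K27ac was 1.503 and 1.102 CPM at 0 h, 169 and 168 CPM at 6 h and 260.4 and 278 CPM at 72 h, and Jun was 17.8 and 16.3 scaled CPM at 0 h, 146 and 162 at 6 h, then 125 and 118 at 72 h. Jun was thus as high at 6 h (log2 fold change 3.18, SE 0.15) as at 72 h (log2 fold change 2.83, SE 0.15, edgeR adjusted p = 1.0e-16). In PTPRM, a receptor tyrosine phosphatase, Jun was 17.5 and 12.3 scaled CPM at 0 h, 89.2 and 116 at 6 h, then 105 and 102 at 72 h (log2 fold change 2.79, SE 0.16, edgeR adjusted p = 5.7e-16), with H3K27ac of 1.45 and 1.61 CPM at 0 h, 102 and 93.4 CPM at 6 h and 211 and 238 CPM at 72 h. In ARHGAP22, a GTPase-activating protein for Rac, Jun was 24.2 and 19.6 scaled CPM at 0 h, 53.6 and 50.7 at 6 h, then 158 and 143 at 72 h (log2 fold change 2.78, SE 0.15, edgeR adjusted p = 9.0e-17), and H3K27ac, 2.96 and 2.11 CPM at 0 h, 25.7 and 17.3 CPM at 6 h and 296 and 304 CPM at 72 h, came mostly after 6 h. The TRIO cluster described above came next (2.63). The largest losses were in KMT2E, a chromatin regulator, where Jun was 171 and 191 scaled CPM at 0 h, 53.3 and 67.2 at 6 h, then 41.8 and 39.9 at 72 h (log2 fold change -2.15, SE 0.14, edgeR adjusted p = 2.2e-15; -1.59 under totals) and H3K27ac held at 223 and 219 CPM at 0 h, 194 and 208 CPM at 6 h and 204 and 202 CPM at 72 h. After the chromosome 1 cluster that stood apart (-1.95), the cluster with CD2BP2 was next (log2 fold change -1.46, SE 0.14, edgeR adjusted p = 1.8e-11; -0.9 under totals).

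At 6 against 0 h, 95 of 286 new clusters were called higher in Jun and 50 lower, with 20.8% called higher and 25.5% called lower over all clusters. The median log2 fold change was 0.12. Retained clusters had 13 higher and 121 lower, with a median of -0.39. Under totals the calls in new clusters were 126 higher and 21 lower, where 26.2% and 16.4% of all clusters were. The split rests on 1 library: without the second 6 h library, 80 were higher and 74 lower, with a median of -0.0049. Under totals, in DESeq2 and with any 1 library left out, 64 of the higher and 21 of the lower calls held. Of the 93 clusters higher at 72 h, 72 were already called higher at 6 h; both contrasts share the 0 h libraries.

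Single Jun regions inside new clusters also split by whether acetylation was there before. Of 2979 tested at 72 against 0 h, 1186 were higher and 689 lower, with 28% called higher and 25.7% called lower over the whole table. The split depends on the scaling: totals gave 1697 higher and 317 lower (44.2% and 15.3% of all regions), and TMM factors taken over shared-peak regions gave 1944 higher and 215 lower (51.5% and 11.8% of all regions). On regions acetylated at 0 h, 120 were higher and 517 lower of 1089, with a median log2 fold change of -0.52. Among all Jun regions of this kind, 3.28% were higher and 62.3% lower (median -0.92), so this split is not particular to the new clusters. At promoter windows 32 were higher and 121 lower of 209 (median -0.76), where 6.97% and 67.3% were over the whole table. The shift of 0.56 that scaling to totals brings exceeds the first of these medians, so its direction rests on the scaling. At 6 h, 760 regions were higher and 377 lower, with 13.1% called higher and 12.2% called lower over the table; totals gave 944 higher and 249 lower (17.3% and 8.6% of all regions) and shared-peak factors 946 higher and 287 lower (16.6% and 9.31% of all regions). Regions with Jun peaks in both libraries of a time numbered 974 at 0 h, 914 at 6 h and 2164 at 72 h; peak numbers also follow depth, which was greatest at 72 h for Jun.

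**Figure D3:**
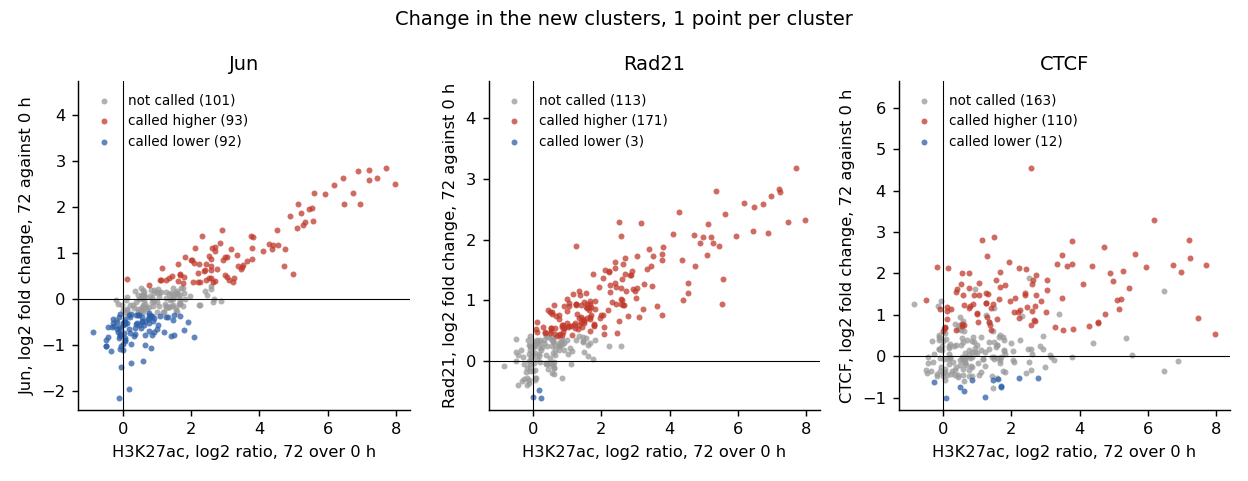
Log2 fold change at 72 against 0 h of Jun, Rad21 and CTCF (vertical axes) against the log2 ratio of H3K27ac at 72 over 0 h (horizontal axes), 1 point per new cluster, coloured by the call at edgeR adjusted p under 0.05 (grey, not called; red, higher; blue, lower). Jun and Rad21 climb with H3K27ac across clusters, with 93 and 171 called higher, and CTCF scatters more widely, with 110.

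Rad21 was higher in most new clusters. Of 287 tested, 171 (59.6%) were higher and 3 lower at 72 against 0 h, with 29% called higher and 8.56% called lower over all clusters. The median level in scaled CPM was 45.4 and 40.7 at 0 h, against 71.7 and 65.98 at 72 h. The median log2 fold change was 0.57 (quartiles 0.25 and 1.03), against 0.21 over all clusters. Retained clusters had 20 higher and 31 lower of 213, with a median of -0.055. The 374 clusters of ranks 501 to 1000 at 72 h outside the top 500 at 0 h had 169 higher and 17 lower, with a median of 0.38. Under totals 147 new clusters were called higher and 14 lower, where 24.2% and 14.7% of all were. Of the higher calls, 117 held under totals, in DESeq2 and with any 1 library left out; none of the 3 lower calls did. The classes of clusters were not tested against each other.

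Most clusters with more Jun also had more Rad21. Of the 93 with more Jun, 89 had more Rad21 and none had less, and these were 89 of the 171 clusters with more Rad21. Neither this overlap nor the correlations below were computed over all clusters, so they are not shown to be particular to the new ones. In these 93 the median Rad21 was 26.1 and 24.5 scaled CPM at 0 h and 65.9 and 61.6 at 72 h. Of the 92 called lower in Jun under TMM, 25 had more Rad21 and 3 less. Across new clusters the Spearman correlation of the log2 changes of Jun and Rad21 was 0.722 (n = 286 clusters); with H3K27ac it was 0.8199 for Jun, 0.845 for Rad21 and 0.3696 for CTCF. These are descriptions across clusters of the same libraries, which share cluster width and copy number. The largest Rad21 gains were in HIVEP3 (5.19 and 2.11 scaled CPM at 0 h and 33.3 and 35.8 at 72 h; log2 fold change 3.17, SE 0.28, edgeR adjusted p = 1.4e-11), PTPRM (5.35 and 5.07 scaled CPM at 0 h and 37.8 and 37.1 at 72 h; log2 fold change 2.84), LAIR2 (6.45 and 9.71 scaled CPM at 0 h and 60.7 and 49.2 at 72 h; 2.79) and CAMTA1 (8.65 and 10.8 scaled CPM at 0 h and 67.7 and 64.8 at 72 h; 2.78). LAIR2 encodes a soluble collagen receptor and CAMTA1 a calmodulin-binding transcription activator. FPR3, a formyl peptide receptor, lay in 1 of the 3 clusters with less Rad21 (116 and 88.6 scaled CPM at 0 h and 82.8 and 64.3 at 72 h; log2 fold change -0.48, SE 0.18, edgeR adjusted p = 0.031), and NBPF4 in another (23.3 and 20.1 scaled CPM at 0 h and 16.1 and 12.3 at 72 h; log2 fold change -0.61, SE 0.23, edgeR adjusted p = 0.03).

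Most Rad21 regions called higher lay off CTCF regions, in new clusters as in the whole table. Of 2217 Rad21 regions tested in new clusters, 832 were higher and 59 lower, with 15.4% called higher and 7.91% called lower over the table. DESeq2 called 551 of them in all, against 891 by edgeR, and 6.7% of all the Rad21 regions it tested. On CTCF regions with peaks at 0 or 72 h, 88 were higher and 12 lower of 428 (median log2 fold change 0.14). Off them 744 were higher and 47 lower of 1789 (median 0.82). Among all Rad21 regions, 1708 were higher and 2079 lower of 22600 on CTCF, and 11198 higher and 4542 lower of 61150 off it. On Jun regions called higher at 72 h, 508 were higher and 0 lower of 632, against 6920 and 12 of 10091 on such regions of the whole table, so this holds beyond the new clusters. On Jun regions called lower, 71 (11.3%) were higher and 34 (5.41%) lower of 628. Genome-wide, 7.75% of the Rad21 regions on such Jun regions were higher and 11.7% lower. The lean was thus to lower among all of these, and to higher in the new clusters. The difference between regions on and off CTCF was not tested.

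CTCF had the fewest calls, and their number changed much when 1 library was left out. Over the new clusters its median was 23.7 and 24.5 scaled CPM at 0 h, 26.9 and 22.8 at 6 h, then 35.3 and 36.2 at 72 h. At 72 against 0 h, 110 of 285 clusters were higher and 12 lower, with 16.6% called higher and 5.82% called lower over all clusters. The median log2 fold change, 0.42, was close to that of all clusters, 0.46. It stayed between 0.37 and 0.47 with any 1 library left out. Without a library, the number of calls was 62 or 50 (either 0 h library left out), and 53 or 44 (either 72 h library). Of the higher calls, 37 held in every such fit, under totals and in DESeq2, and none of the lower calls did. At 6 against 0 h, 9 were higher and 2 lower, with 0.94% called higher and 0.81% called lower over all clusters. These 11 calls became 1 without either 0 h library and 29 without the second 6 h library, so no change at 6 h was established. Of the CTCF regions in new clusters, 15 were higher and 6 lower at 6 h, with 2.33% called higher and 0.325% called lower over the table.

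The higher CTCF calls were mostly of weak signal, and many lay where Jun was higher. In the 110 clusters called higher, the median CTCF was 8.79 and 9.02 scaled CPM at 0 h, 16.8 and 11.8 at 6 h, then 23.96 and 24.3 at 72 h, and in the 12 called lower it was 89.2 and 95.1 scaled CPM at 0 h, 75.4 and 79.3 at 6 h, then 60.5 and 58.6 at 72 h. Of 1211 CTCF regions tested in new clusters, 196 were higher and 31 lower, with 4.07% called higher and 2.72% called lower over the table. This count was 227 in all and 5 or 1 without either 0 h library, 445 or 444 without either 6 h library, and 12 or 14 without either 72 h library, so it is not stable. Among regions with a mean count of at least 50, 16 (4.98%) were higher and 22 (6.85%) lower of 321 (median -0.14). Genome-wide, 2.23% of the CTCF regions of that depth were higher and 5.80% lower (median -0.27). This lean to lower is thus not particular to the new clusters. Among regions with CTCF peaks in both 0 h libraries, 3 were higher and 30 lower of 312, where 0.725% and 6.35% were over the whole table. On Jun regions called higher, 102 were higher and 2 lower of 274 (median 1.9), against 1134 and 8 of 4326 (median 1.75) on such regions of the whole table.

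Single clusters showed both kinds. In CAMTA1, CTCF was 19.1 and 15.5 scaled CPM at 0 h, 15.5 and 17.1 at 6 h, then 87.1 and 93.0 at 72 h (log2 fold change 2.36, SE 0.2, edgeR adjusted p = 3.2e-06), and Jun was 17.1 and 19.6 scaled CPM at 0 h and 110.5 and 111 at 72 h (log2 fold change 2.59, SE 0.14, edgeR adjusted p = 1.8e-16). In the cluster 106 kb from FOXF1, CTCF was 2.29 and 1.44 scaled CPM at 0 h, 9.39 and 6.102 at 6 h, then 19.1 and 18.96 at 72 h (log2 fold change 3.28, SE 0.43, edgeR adjusted p = 1.5e-04), with H3K27ac of 3.11 and 3.26 CPM at 0 h, 36.2 and 36.6 CPM at 6 h and 219 and 239 CPM at 72 h. The cluster of OSBPL7, SP2 and SP6, with 235 and 223 CPM at 0 h, 346 and 363 CPM at 6 h and 533 and 531 CPM at 72 h, had CTCF of 198 and 251 scaled CPM at 0 h, 114 and 109 at 6 h, then 113 and 114 at 72 h (log2 fold change -0.98, SE 0.19, edgeR adjusted p = 0.0029), and this call was lost with 1 library left out (highest adjusted p = 0.064). Edges of new clusters lay within 10 kb of a CTCF region with 72 h peaks in 40.1% of 574 cases, against 43.9% of 426 edges of retained clusters. The median distance was 15.7 kb against 13.5 kb.

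Sorted by how high they ranked at 0 h, the new clusters formed a gradient rather than 1 kind. The ranks used H3K27ac at 0 h, so its values are descriptive; Jun, Rad21 and CTCF were not used. Over all clusters, 33.7% were called higher and 40.9% lower in Jun at 72 h. For Rad21 29% were called higher and 8.56% lower, and for CTCF 16.6% were called higher. These shares were not split by rank at 0 h. The 73 clusters of best rank 501 to 1000 at 0 h had a median H3K27ac of 220.1 CPM at 0 h, 229.97 CPM at 6 h and 239 CPM at 72 h. Jun was called higher in 2 and lower in 49 of the 72 tested at 72 h, with a median log2 change of -0.49 that became 0.067 under totals. Rad21 was higher in 10 and lower in 2. The 52 of ranks 1001 to 2000 had 153, 196 and 247 CPM, and the 70 of ranks 2001 to 5000 had 112, 196 and 264 CPM at 0, 6 and 72 h. Jun was higher in 3 and lower in 24 of the former, and higher in 13 and lower in 17 of the latter, while Rad21 was higher in 25 and 48.

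The 66 clusters ranked beyond 5000 at 0 h had 44.7, 131 and 263 CPM of H3K27ac at the 3 times. Jun was higher in 49 and lower in 2, and Rad21 was higher in 62. The 26 clusters with no acetylated 0 h cluster had 4.68, 52.7 and 251 CPM. Jun and Rad21 were called higher in all 26. Their median Jun was 32.4 and 31.7 scaled CPM at 0 h, 62.9 and 73.1 at 6 h, then 133 and 130.3 at 72 h, and their median Rad21 was 9.36 and 12.03 scaled CPM at 0 h and 61.2 and 51.1 at 72 h. CTCF was higher in 20 of the 25 tested, with medians of 10.7 and 11.5 scaled CPM at 0 h, 15.5 and 12.6 at 6 h, then 27.4 and 24.9 at 72 h. A promoter window lay in 68.5% of the clusters ranked 501 to 1000 and in 34.6% of the 26. A top 500 cluster at 6 h overlapped 40 of the first class and 0 of the 26, so none of these 26 had reached the top by 6 h. The dependence of Jun and Rad21 on earlier acetylation was not particular to the new clusters. Of all Jun regions, 34.6% off regions acetylated at 0 h were called higher, against 3.28% on them. Of all Rad21 regions, 19.3% and 6.78% were.

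**Figure D4:**
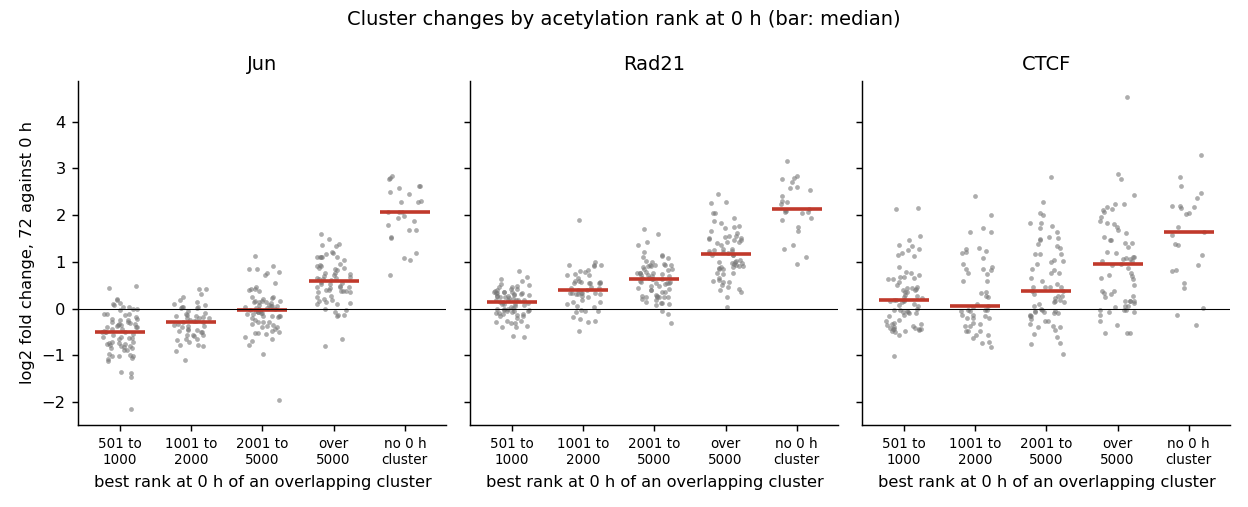
Log2 fold change at 72 against 0 h of Jun, Rad21 and CTCF (vertical axis, 1 grey point per new cluster, red bar at the median) in 5 classes of best rank at 0 h (horizontal axis). The Jun median goes from -0.49 in the class 501 to 1000 to 2.06 in the class with no 0 h cluster, the Rad21 median from 0.15 to 2.13 and the CTCF median from 0.18 to 1.64, with wide overlap between classes for CTCF; scaling to totals moves the first Jun median to 0.067.

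As a share of each H3K27ac library, the new clusters took 4.08 and 4.14% at 0 h, 5.79 and 6.04% at 6 h, then 8.51 and 8.83% at 72 h, while the retained clusters took 9.32 and 9.33% at 0 h, 7.66 and 8.42% at 6 h, then 7.73 and 7.97% at 72 h. The choice of clusters used these 0 and 72 h levels, so the rise is part of that choice and nothing is read from it. The sums also cover 287 new but only 213 retained clusters. Per cluster, the median at 72 h stayed higher in retained than in new clusters, at 293 against 254 CPM. The following shares leave out the cluster at chr1:143184659-143266950. Of the Jun counts the new clusters took 2.89 and 2.86% at 0 h, 3.17 and 4.01% at 6 h, then 4.42 and 4.34% at 72 h. Of the CTCF counts they took 1.25 and 1.204% at 0 h, 0.953 and 1.196% at 6 h, then 1.56 and 1.64% at 72 h, and of the Rad21 counts 1.51 and 1.501% at 0 h and 2.095 and 1.88% at 72 h. With that cluster the Jun shares were 4.09 and 3.79% at 0 h, 4.87 and 4.82% at 6 h, then 4.86 and 4.72% at 72 h and the Rad21 shares 3.399 and 4.14% at 0 h and 4.14 and 4.19% at 72 h. These are shares of all counts, of which mitochondrial reads took a changing part. Over nuclear counts alone the rise in Jun was smaller: without that cluster the shares were 3.799 and 3.95% at 0 h, 4.03 and 4.896% at 6 h, then 4.86 and 4.75% at 72 h, and with it 5.39 and 5.24% at 0 h, 6.19 and 5.89% at 6 h, then 5.34 and 5.16% at 72 h, with no rise between 0 and 72 h. Without it the nuclear shares for CTCF were 1.52 and 1.55% at 0 h, 1.37 and 1.503% at 6 h, then 1.73 and 1.81% at 72 h. For Rad21 they were 2.298 and 1.996% at 0 h, against 3.02 and 2.697% at 72 h.

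**Figure D5:**
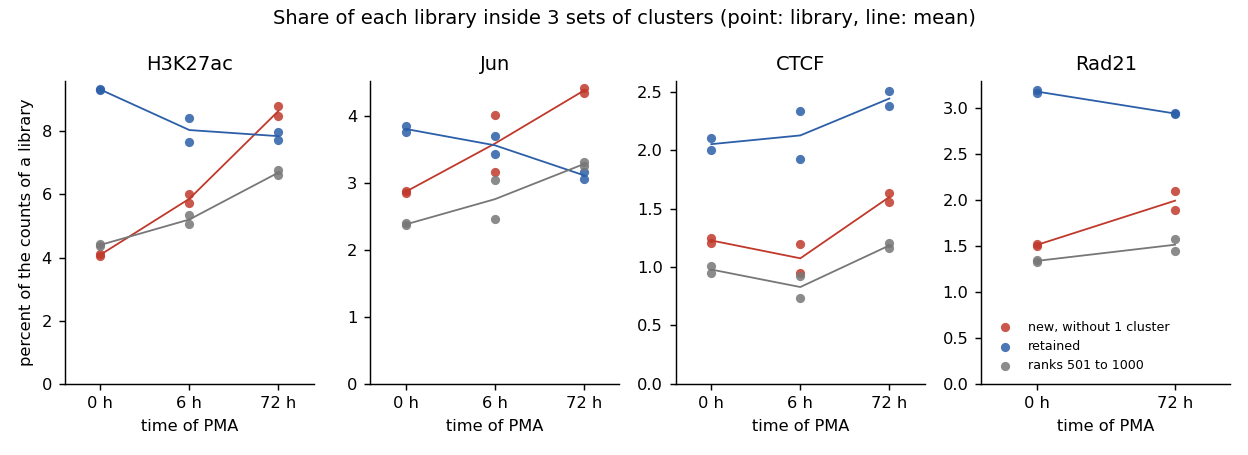
Percent of each library's counts (points, 1 per library; lines join the means) inside the new clusters without the chromosome 1 cluster that stood apart (red), the retained clusters (blue) and the clusters of ranks 501 to 1000 (grey), by antibody and time of PMA. The share of the new clusters in Jun goes from 2.89% and 2.86% at 0 h to 4.42% and 4.34% at 72 h, and over nuclear counts alone, not drawn, from 3.799 and 3.95% to 4.86 and 4.75%.

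Which clusters counted as new depended on how they were built. Joining regions within 5000 bp gave 284 new clusters, which overlapped 130 of the 287, and 25000 bp gave 255, overlapping 159. Ranking by CPM per kb of acetylated region gave 314, overlapping 69. Leaving out any H3K27ac library of 0 or 72 h kept 257 to 278 of the 287 overlapped.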

How the data were processed

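The deposited region tables give raw read counts per region and library for each antibody (22 libraries, 11 groups). The authors' deposited tables also hold log2 fold changes and adjusted p-values, which were not used here. The authors' deposited narrow peak lists give, per library, a fold enrichment and −log10 p and q values, and here only their positions served. Per the submitters' processing notes, BWA 0.7.17, MACS2, SAMtools 1.9, Trim Galore 0.4.3, bedtools 2.26 and deepTools 3.0.1 were used with hg19 and hg38; their roles and parameters are not given in the sources used here. Contig names and positions up to 64331078 on chromosome 20 fit GRCh38, and printed starts count from 1.

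Clusters were built with Python 3.11.15 (pandas 2.3.3, numpy 2.4.6). A region belonged to a cluster, gene span or promoter window when it overlapped by at least 1 bp. Counts of all regions of an antibody were summed per cluster. Regions and sums were tested with edgeR 4.0.16 (R 4.3.3; quasi-likelihood test, filterByExpr, TMM factors of the region table, all times of an antibody in 1 fit, no block), with Benjamini-Hochberg adjustment over the whole table and calls at an adjusted p under 0.05. An SE is the log2 fold change over the square root of F. The fits were checked on simulated counts. Replicates of every group differed by more than sampling noise (chi-square per degree of freedom 2.18 to 8.99), so none was counted as a duplicate. Alternatives were total scaling, other factors, DESeq2 1.42.0, other filters, a replicate block, each library left out and other cluster rules.

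Clusters are named by the RefSeq genes they overlap, otherwise by the nearest coding gene. Named are the 12 of highest CPM at 72 h, the 3 on each side of the threshold, the 4 largest and 4 smallest called changes per antibody, and those at genes of 13 lists; of these the text gives the main ones, and a few listed genes are not reported here. The clusters and lists were chosen with earlier results of these data known.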

Additional observations from a re-analysis of the deposited data

How the results depend on the processing

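Depth limits CTCF most, with 2553677 to 6068421 counts a library, and each group has 2 libraries. Keeping the top 250 or top 1000 clusters gave 153 or 493 new ones in place of 287; with a library left out it was 277 to 292. For Jun sums at 72 against 0 h (185 calls, 93 higher), the majority turned to lower in DESeq2 (188 calls) and without the first 0 h library (152), or either 6 h library (213), and the range was 147 to 213. The 227 CTCF region calls at 72 h became 419 under total scaling, 63 in DESeq2, 37 with a mean count of at least 50 (majority lower), 475 with only the compared times, and 1 to 445 with a library left out (1, lower, without the second 0 h library). The 21 at 6 h became 13 with TMM factors taken over shared-peak regions alone, 6 in DESeq2, 5 with a mean count of at least 50 (majority lower), 10 with only the compared times, and 1 to 46 (1, lower, without the first 0 h library). CTCF sums gave 73 calls in DESeq2 and 44 to 151 at 72 h (122 calls), and 6 in DESeq2 and 1 to 29 at 6 h (11 calls; 1, lower, without the first 0 h library). Rad21 regions (891 calls) gave 551 in DESeq2, 305 with a mean count of at least 50 and 595 to 886 with a library left out; Rad21 sums gave 120 to 187. The causes were not tested, except that a count minimum leaves fewer regions. With a library left out, Jun regions gave 1344 to 2040 calls at 72 h and 810 to 1181 at 6 h, Jun sums at 6 h 97 to 171, and H3K27ac regions at 6 h 1997 to 2185.

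The replicate numbers are not stated to pair libraries, and with 2 numbers the data cannot show it; deviations of libraries with the same number correlated at -0.0045 to 0.17. With the number as a replicate block, calls were 183 and 142 for Jun sums at 72 and 6 h, 1831 and 1110 for Jun regions, 126 and 16 for CTCF sums, 325 and 31 for CTCF regions, 197 for Rad21 sums, 960 for Rad21 regions and 2243 for H3K27ac regions at 6 h. Without the mitochondrial chromosome, an alternative chosen after seeing the data, region calls were 1873 and 1136 for Jun, 230 and 21 for CTCF, 909 for Rad21 and 2214 for H3K27ac. Requiring at least 2 regions in a cluster, also chosen after seeing the data, gave 284 new ones.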
